A study of Homo sapiens with 2 samples.

Results

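The miR-106b-25 cluster is a group of 3 miRNA hairpins, miR-106b, miR-93 and miR-25, that lie one after another in an intron of MCM7, a gene for a subunit of the helicase that opens DNA for replication. Its 6 mature miRNAs, the 5p and 3p arms of each hairpin, were chosen by name. All 6 were found among the 2218 mature miRNAs listed, and all 6 had reads in both libraries. The levels came from small RNA sequencing of K562, an established human erythroleukaemia cell line. One library was made from K562 cells transduced with a GFP lentivirus, the control, and 1 from K562 cells transduced with a lentivirus that overexpresses QKI5, a form of the RNA-binding protein Quaking found in the nucleus. The level of the QKI5 transcript was not analysed here. Both groups thus shared the cell line and the exposure to a lentivirus. With a single library in each group, the differences below have no replicate check, and the effect of QKI5, the depth of a library and any other difference between these cultures cannot be told apart.

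A primary transcript that holds several hairpins is cut by Drosha into separate hairpins, each of which Dicer cuts into a duplex of a 5p and a 3p arm. As a rule 1 arm is kept in an Argonaute protein and the other is degraded. The kept arm finds its targets mainly through its seed, bases 2 to 8 counted from the 5′ end. The cluster is a paralog of the oncogenic miR-17-92 cluster. Its members are known to be raised in many tumours, to follow E2F factors together with MCM7, and to repress the cell cycle inhibitor CDKN1A (miR-106b and miR-93) and the cell death gene BCL2L11 (miR-25).

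The mature sequences are shown because the cluster holds 2 different seeds among its main arms. They are from RefSeq (GRCh38.p14), which matched all 6 members, and capitals mark the seed.
hsa-miR-106b-5p: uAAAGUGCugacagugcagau
hsa-miR-93-5p: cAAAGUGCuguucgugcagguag
hsa-miR-25-3p: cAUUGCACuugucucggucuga
hsa-miR-106b-3p: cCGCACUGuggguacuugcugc
hsa-miR-93-3p: aCUGCUGAgcuagcacuucccg
hsa-miR-25-5p: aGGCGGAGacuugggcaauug

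miR-106b-5p and miR-93-5p carry the same seed, that of miR-17. They differ by 7 single-base edits (substitutions, insertions or deletions) over their whole length. miR-25-3p carries the seed of miR-32 and miR-92. The seeds of miR-106b-3p, miR-93-3p and miR-25-5p were shared by no other listed miRNA with a RefSeq sequence. The closest other listed miRNA with a RefSeq sequence was 5 edits away from miR-106b-5p, 3 from miR-93-5p and 4 from miR-25-3p, and none of the listed miRNAs with such a sequence lay within 2 edits of any member. The sources used here do not give how reads matching several miRNAs were assigned.

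The hairpins of miR-106b and miR-25 show how the arms sit, with the mature arms in capitals and the 5p arm first.
miR-106b hairpin: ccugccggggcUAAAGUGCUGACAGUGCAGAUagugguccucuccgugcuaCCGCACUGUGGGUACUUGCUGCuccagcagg
miR-25 hairpin: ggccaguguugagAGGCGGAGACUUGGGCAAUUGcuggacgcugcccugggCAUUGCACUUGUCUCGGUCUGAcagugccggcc

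RefSeq places the miR-106b hairpin at chr7:100093993-100094074 and the miR-25 hairpin at chr7:100093560-100093643, both on the minus strand of GRCh38.p14. The mature arms of miR-93 lie between them, at chr7:100093815-100093837 (5p) and chr7:100093777-100093798 (3p). The 6 mature arms span 493 bases, in the order miR-106b, miR-93, miR-25 along the transcript. In GENCODE release 29 (GRCh38) all 3 hairpins fall in intron 13 of MCM7-201, the principal coding transcript, which has 15 exons and is also on the minus strand. They overlap no annotated MCM7 exon. These are annotation positions, while the authors mapped to hg19.

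Levels were taken as RPM, reads per 1000000 of the library's reads. On that reading 1 read was worth 0.0430 RPM with GFP and 0.153 RPM with QKI5. The GFP library then rested on 23262340 reads and the QKI5 library on 6553945, so GFP was 3.55 times as deep. Of the markers of the labelled cell type, 4 of 4 erythroid miRNAs were present, summing to 3950 RPM with GFP and 3232 RPM with QKI5, and they differed in direction. miR-451a stood at 2798 and 2187 RPM and miR-144-3p at 548 and 293 RPM, while miR-486-5p stood at 528 and 608 RPM and miR-210-3p at 75.1 and 144 RPM. Of markers of other cell types, the neuronal miR-124-3p had 0 reads with GFP and 1 with QKI5, and the liver miRNA miR-122-5p had 1 and 0. The other neuronal marker, miR-9-5p, stood at 378 and 332 RPM. The 3 muscle miRNAs summed to 0.344 and 2.90 RPM and the 3 epithelial miRNAs to 64.3 and 72.6 RPM. Their part in the results below was not tested.

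The main arm of the first hairpin was lower in the QKI5 library, that of the second was level as deposited (log2 ratio 0.13 when the columns were scaled to their miRNA reads), and that of the third was higher. miR-106b-5p was at 3167 RPM with GFP (95% exact Poisson interval 3145 to 3190) and 1449 RPM with QKI5 (1420 to 1478). It was 2.19-fold lower with QKI5 (95% counting interval 2.14 to 2.23), and its rank among all listed miRNAs went from 19 to 41. The intervals come from reads without molecular identifiers, so they cover counting error only.

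miR-93-5p, the seed relative made from the next hairpin, was at 1666 RPM with GFP (1650 to 1683) and 1637 RPM with QKI5 (1606 to 1668). The ratio of QKI5 over GFP was 0.982, with a counting interval of 0.961 to 1.004, which includes 1. The sign and size of this small difference depended on the scaling, with log2 ratios of 0.13 when scaled to the miRNA reads and -0.13 with the 10 most abundant miRNAs kept out of the scaling. Its rank was 35 with GFP and 36 with QKI5.

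miR-25-3p, the main arm of the last hairpin, had 448 RPM with GFP (440 to 457) and 921 RPM with QKI5 (897 to 944). The level with QKI5 was higher by 2.05-fold (1.99 to 2.12), and its rank moved from 75 to 52. The lower end of that interval lies just under 2-fold.

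The lesser arms were less abundant by far. miR-106b-3p had 169 RPM with GFP (164 to 175) and 269 RPM with QKI5 (257 to 282), higher by 1.59-fold (1.503 to 1.68). miR-93-3p had 74.8 RPM with GFP (71.3 to 78.4) and 94.3 RPM with QKI5 (87.0 to 102), and was 1.26-fold higher (1.15 to 1.38). miR-25-5p was the least abundant member, at 10.6 RPM (9.34 to 12.03) from 247 reads and 9.92 RPM (7.65 to 12.6) from 65 reads. Its intervals overlap, and the ratio was 0.934 (0.699 to 1.23).

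**Figure D1:**
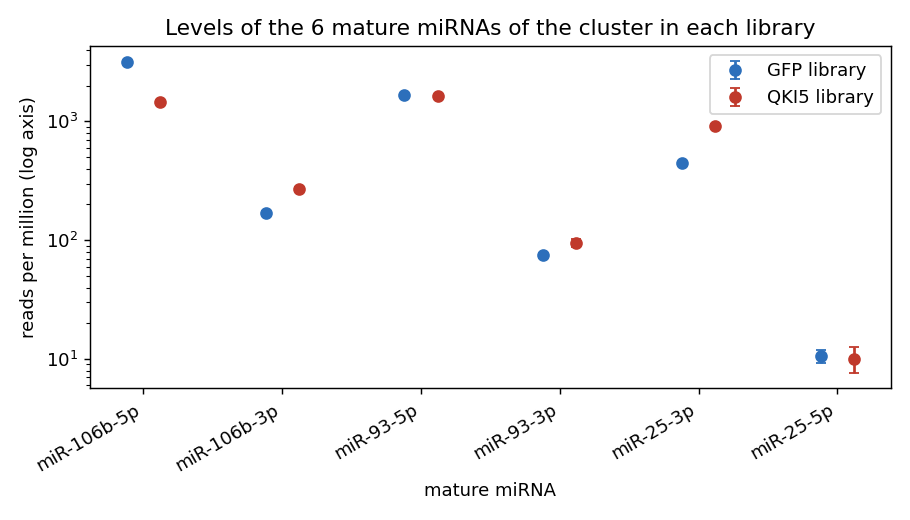
Level of each of the 6 mature miRNAs of the cluster with GFP (blue) and QKI5 (red), in RPM on a log axis. Bars are 95% exact Poisson intervals of the reads and are mostly smaller than the points; miR-106b-5p is lower and miR-25-3p higher in the QKI5 library, while miR-93-5p sits at about the same height in both as deposited (log2 ratio 0.13 when scaled to the miRNA reads).

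The order of levels differed between the libraries at the top. With GFP it ran miR-106b-5p, miR-93-5p, miR-25-3p, miR-106b-3p, miR-93-3p, miR-25-5p. With QKI5 miR-93-5p stood above miR-106b-5p and the rest of the order was the same. No neighbours in either order had overlapping counting intervals.

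On the log2 scale, computed on RPM plus a pseudocount of 0.153 RPM, the ratios of QKI5 over GFP were -1.13 for miR-106b-5p, -0.03 for miR-93-5p and 1.04 for miR-25-3p. A ratio of at least 2-fold, a log2 ratio of 1 in size, was met by 1 of the 6 members upward (miR-25-3p) and by 1 downward (miR-106b-5p). Both are among the 200 most abundant miRNAs, of which 15% passed 2-fold upward and 7% passed it downward. Among the 400 most abundant the shares were 20.75% and 7.25%, and among all 1995 miRNAs with a read in either library 23.8% and 7.27%. In that last set miRNAs with few reads pass upward more easily. With this pseudocount a single QKI5 read against none with GFP reaches 2-fold, while a single GFP read against none with QKI5 does not. A count of 1 in 6 each way does not set the cluster apart from this background. Both calls lie close to the threshold. miR-25-3p came to a log2 ratio of 0.93 under a scaling without the 10 most abundant miRNAs, and miR-106b-5p came to -0.97 when each column was scaled to its reads on miRNAs. These scalings moved the median log2 ratio of the 200, which was 0.06 as deposited, by -0.11 and 0.16. The sign of both members held under each scaling tried, while that of miR-93-5p turned to 0.13 and that of miR-25-5p to 0.06 when scaled to the miRNA reads.

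Summed over the cluster, the 6 miRNAs made up 5537 RPM with GFP and 4380 RPM with QKI5, 1.26-fold lower (1.25 to 1.28). They held 0.835% of the miRNA reads with GFP (95% Wilson interval 0.831% to 0.840%) and 0.736% with QKI5 (0.728% to 0.745%). Per hairpin, with both arms added, miR-106b was 1.94-fold lower (1.90 to 1.98), miR-93 was at a ratio of 0.994 (0.974 to 1.02) and miR-25 was 2.03-fold higher (1.96 to 2.09). The main arms held at least 84.3% of the reads of their hairpins in either library, so these sums largely repeat the main-arm values. In bulk RNA, fewer cells with a miRNA and less of it per cell cannot be told apart.

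The composition of the cluster was read within each library, where the scaling of the columns cancels. miR-106b-5p made up 57.2% of the cluster's reads with GFP (56.9% to 57.5%) and 33.1% with QKI5 (32.5% to 33.6%). miR-93-5p made up 30.1% (29.8% to 30.3%) and 37.4% (36.8% to 37.9%). miR-25-3p made up 8.10% (7.95% to 8.25%) and 21.0% (20.5% to 21.5%). Of the lesser arms, miR-106b-3p held 3.06% with GFP and 6.15% with QKI5, miR-93-3p 1.35% and 2.15%, and miR-25-5p 0.192% and 0.226%.

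**Figure D2:**
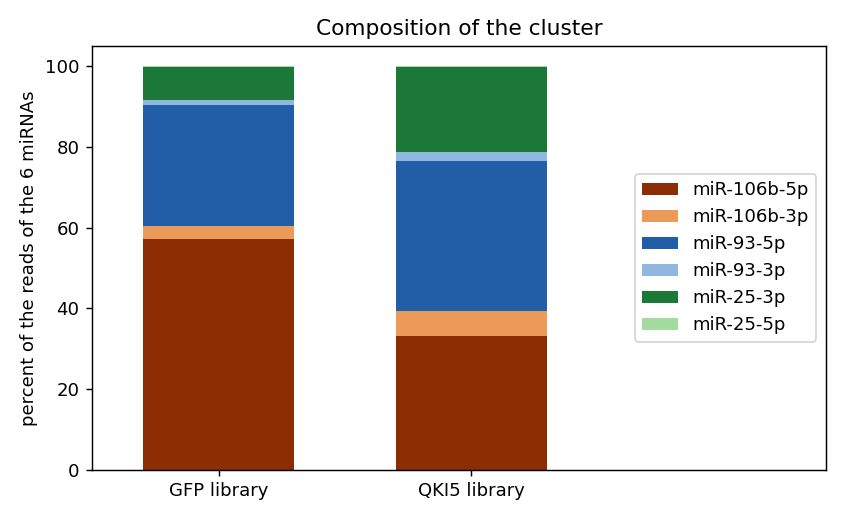
Share of each mature miRNA in the reads of the cluster, in percent, with GFP and with QKI5 (1 bar each). The dark brown part, miR-106b-5p, is 57.2% and then 33.1%, and the dark green part, miR-25-3p, is 8.10% and then 21.0%.

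Compared with each other, the neighbours of the intron differed in read ratio between the libraries. There were 1.90 reads of miR-106b-5p per read of miR-93-5p with GFP and 0.885 with QKI5, 2.15-fold fewer (2.08 to 2.21, exact conditional interval). Per read of miR-25-3p there were 7.07 reads of miR-106b-5p with GFP and 1.57 with QKI5, 4.49-fold fewer (4.32 to 4.66). For miR-93-5p per miR-25-3p the ratios were 3.72 and 1.78, 2.09-fold lower (2.01 to 2.17). In either library both upstream hairpins gave more main-arm reads than miR-25, by a smaller factor with QKI5.

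The spread among main arms was set beside that of other miRNA clusters whose members share a primary transcript or lie close together. Of 29 clusters listed, 24 had at least 2 main arms among the 400 most abundant miRNAs. The log2 ratios of the miR-106b-25 cluster spanned 2.17, from miR-106b-5p to miR-25-3p, against a median span of 0.66 over the other 23 on the list. Within that list the X-linked cluster from miR-532 to miR-660 had a wider span, 2.19 over 7 main arms, from miR-362-3p at -0.43 to miR-188-5p at 1.76. The narrowest was 0.21, between let-7a-5p and let-7f-5p. As deposited, in 11 of the other 23 the main arms had both signs, and none of the 23 had main arms past 2-fold in both directions. The miR-106b-25 cluster did so only narrowly. miR-106b-5p came to -0.97 when scaled to the miRNA reads, and miR-25-3p to between 0.93 and 0.98 under the other scalings tried.

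The list was drawn up by hand and leaves out some clusters, among them the imprinted one from miR-379 to miR-656 on chromosome 14. Clusters were therefore also formed by RefSeq position, after the list's values were seen, from hairpins on the same strand with gaps of at most 10 kb. The main arm was then the more abundant arm with a RefSeq position. For some hairpins, such as miR-374a and miR-425, this was the lesser arm. The grouping gave 26 clusters with at least 2 main arms among the 400, and the median span of the other 25 was 0.84. That median is the span of miR-374a and miR-545, which was 0.29 on the list, where miR-374a-5p was used. The span of 2.17 was the third widest, behind 3.66 over 34 main arms for miR-379 to miR-656, from miR-154-3p at -1.66 to miR-539-5p at 1.99, and the X-linked cluster. With the deposited scaling, main arms past 2-fold in both directions occurred in 1 of the other 25, miR-379 to miR-656, with 4 lower and 3 higher. A span grows with the number of main arms, and some main arms of other clusters are made from more than 1 locus, such as miR-16-5p, so these spans are a description.

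**Figure D3:**
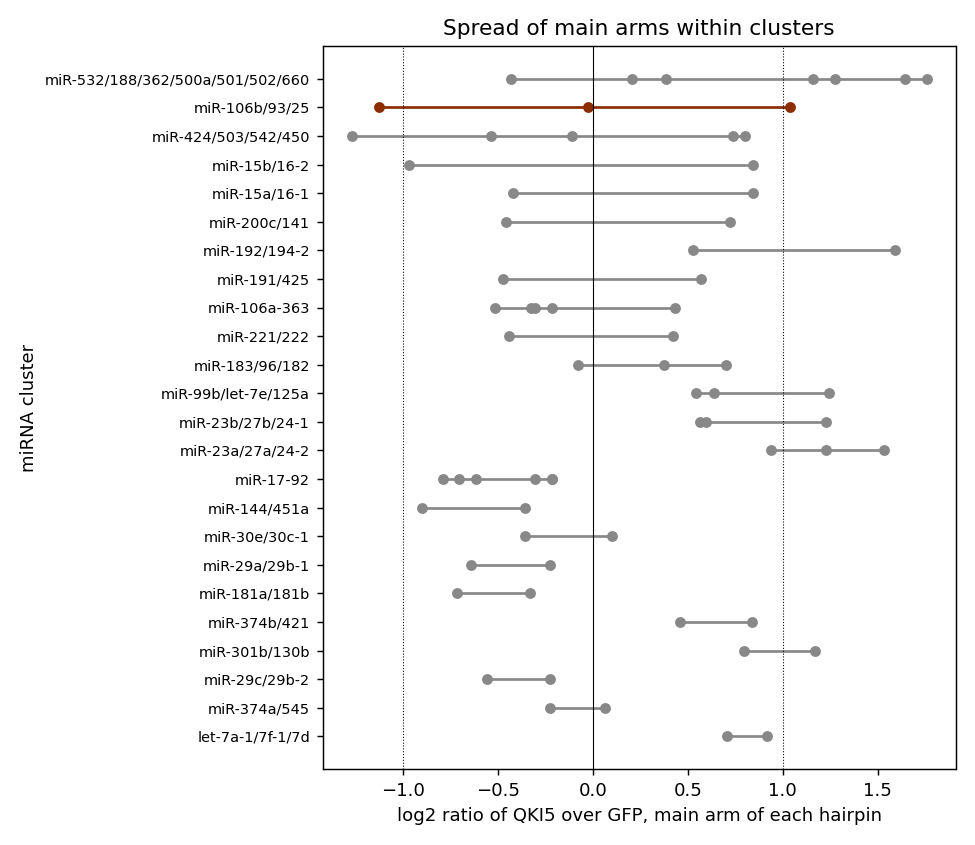
Log2 ratio of QKI5 over GFP for the main arm of each hairpin (points) in the 24 miRNA clusters of the hand-drawn list (rows, ordered by span; the cluster from miR-379 to miR-656 is not on it), with dotted lines at 2-fold. The miR-106b-25 cluster (brown) spans 2.17, from -1.13 to 1.04, second to the 7-member row above it.

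Arm by arm, each 5p arm had fewer reads per read of its 3p arm with QKI5. miR-106b had 18.7 reads of the 5p arm per read of the 3p arm with GFP and 5.38 with QKI5, 3.48-fold fewer (3.27 to 3.69). The 5p arm held 94.9% of the hairpin's reads with GFP (94.8% to 95.1%) and 84.3% with QKI5 (83.6% to 84.98%). For miR-106b the 5p arm was lower and the 3p arm higher, under each scaling tried.

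For miR-93, also a hairpin with a dominant 5p arm, the ratio of 5p to 3p went from 22.3 to 17.4, 1.28-fold lower (1.17 to 1.41). The 5p share was 95.7% (95.5% to 95.9%) and 94.6% (94.1% to 94.96%). In miR-25 the 3p arm dominates, with 42.2 reads per read of the 5p arm with GFP and 92.8 with QKI5, so the ratio of 5p to 3p was 2.20-fold lower with QKI5 (1.66 to 2.94). That value rests on the 65 reads of miR-25-5p in the QKI5 library. The share of the main arm in its hairpin was thus lower with QKI5 in miR-106b and miR-93 and higher in miR-25.

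In log2 terms the change of the 5p to 3p ratio, QKI5 minus GFP, was -1.80 for miR-106b (-1.88 to -1.71), -0.36 for miR-93 (-0.50 to -0.22) and -1.14 for miR-25 (-1.56 to -0.73). Over the 89 hairpins with at least 50 reads of each arm in each library, these 3 included, the median was 0.09 with an SD of 1.16. A change of -1 or lower was met by 2 of the 3 hairpins and by 19.1% of the 89. A change below 0 was met by 3 of 3 and by 46.1%. The values ran from -3.22 for miR-361 to 3.12 for miR-539. miR-106b ranked as the fifth lowest, miR-25 as number 17 and miR-93 as number 35.

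**Figure D4:**
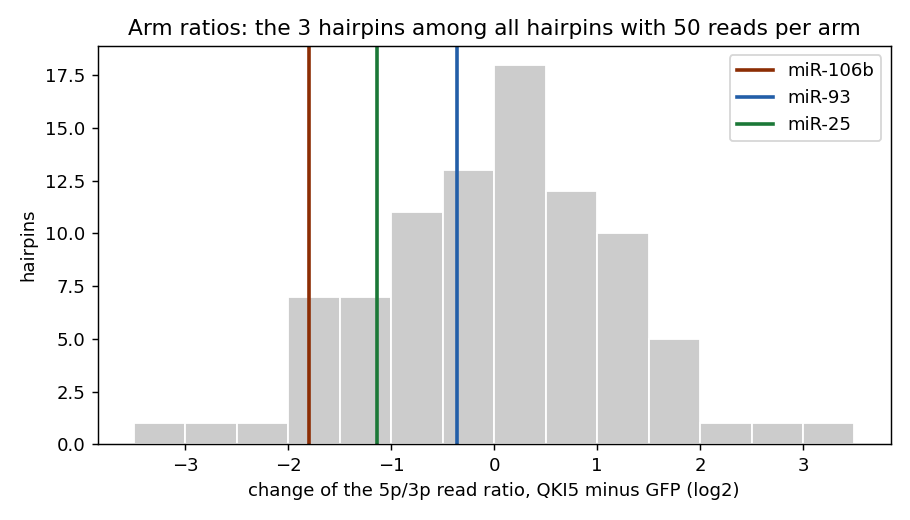
Number of hairpins (vertical axis) by change of the ratio of 5p to 3p reads, QKI5 minus GFP, on a log2 scale (horizontal axis), for 89 hairpins with at least 50 reads per arm in each library. Lines mark miR-106b at -1.80, miR-25 at -1.14 and miR-93 at -0.36, all to the left of 0.

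The base composition of the members went with their ratios in part. Of the 400 most abundant miRNAs, 358 had a RefSeq sequence, and across them the log2 ratio was higher by 0.27 for each 10 percentage points of GC (Pearson r 0.33, Spearman's rho 0.33, across miRNAs that share the same 2 libraries). miR-106b-5p has a GC content of 42.9%, miR-93-5p of 52.2% and miR-25-3p of 50%. The lesser arms are richer in GC, with 63.6% in miR-106b-3p, 59.1% in miR-93-3p and 57.1% in miR-25-5p. The linear trend was removed with the mean log2 ratio of the 358 kept, so the values are not distances from the trend line. The log2 ratios of the main arms were then -0.99, -0.14 and 0.98, both former calls just under 2-fold. Those of the lesser arms were 0.24, 0.03 and -0.35. The difference between the arms of miR-106b went from -1.80 to -1.23, and that of miR-25, whose 5p arm is the richer in GC, went from -1.14 to -1.33. The span over main arms was 1.97, and 1 of the other 25 clusters formed by position, miR-379 to miR-656 at 3.53, had a wider one. The part of base composition in these differences was not tested.

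**Figure D5:**
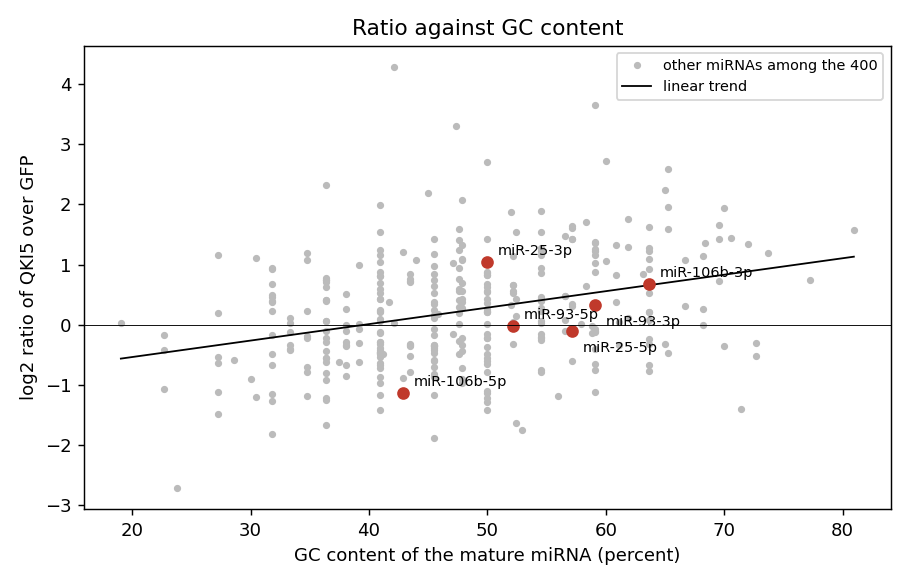
Log2 ratio of QKI5 over GFP (vertical axis) against GC content of the mature miRNA in percent (horizontal axis) for the 358 of the 400 most abundant miRNAs with a RefSeq sequence, with the linear trend. The 6 members are in red: miR-106b-5p lies below the trend and miR-25-3p above it, while miR-106b-3p and miR-93-3p lie near it.

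The seed relatives of the main arms put these values in context. Their sequences, again with the seed in capitals, show how near they are to miR-106b-5p, miR-93-5p and miR-25-3p.
hsa-miR-17-5p: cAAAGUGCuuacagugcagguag
hsa-miR-20a-5p: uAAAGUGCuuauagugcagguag
hsa-miR-106a-5p: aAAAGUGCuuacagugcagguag
hsa-miR-20b-5p: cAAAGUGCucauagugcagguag
hsa-miR-92a-3p: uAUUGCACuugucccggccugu
hsa-miR-92b-3p: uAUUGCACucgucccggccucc
hsa-miR-32-5p: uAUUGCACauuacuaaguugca

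Of the 8 listed miRNAs with a RefSeq sequence and the miR-17 seed, 6 were among the 400 most abundant. Of these, 5 had a log2 ratio below 0 and 1 above. miR-106b-5p was the only one of these 6 past 2-fold. miR-17-5p was at 6916 RPM with GFP and 5958 RPM with QKI5, 1.16-fold lower (1.15 to 1.17), and miR-20a-5p at 7035 and 4592 RPM, 1.53-fold lower (1.51 to 1.55). miR-106a-5p stood at 42.1 and 33.6 RPM, 1.25-fold lower (1.08 to 1.46), and miR-20b-5p at 4.81 and 6.56 RPM, a ratio of 1.36 (0.936 to 1.95). The counting interval of miR-106b-5p thus did not overlap that of any of the 4 relatives outside the cluster. Summed, the 8 miRNAs held 18833 RPM with GFP and 13675 RPM with QKI5. miR-106b-5p made up 16.8% of the reads with this seed with GFP and 10.6% with QKI5, while miR-93-5p made up 8.85% and 11.97%.

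The miR-25 seed was carried by 5 listed miRNAs with a RefSeq sequence, of which 4 were among the 400. miR-92a-3p, the miR-17-92 member that carries it, was at 1817 RPM with GFP and 1568 RPM with QKI5, 1.16-fold lower (1.13 to 1.18), and is made from 2 loci. miR-92b-3p had 48.1 and 116 RPM, higher by 2.41-fold (2.20 to 2.65), and miR-32-5p at 450 and 586 RPM, 1.301-fold higher (1.25 to 1.35). So 2 of the 4 were at least 2-fold higher, miR-92b-3p and miR-25-3p. The sum over the seed was 2764 RPM with GFP and 3190 RPM with QKI5, and its share from miR-25-3p was 16.2% (15.9% to 16.5%) and 28.9% (28.2% to 29.5%). The 2 seed sums kept these directions under each scaling tried.

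In the paralog clusters miR-17-92 and miR-106a-363, 15 arms were among the 400 most abundant. With the deposited scaling 12 of them had a log2 ratio below 0 and 3 above, and 0 were at least 2-fold either way. Their ratios ran from -0.97 for miR-19b-1-5p, with a counting interval of -1.05 to -0.89 that includes 2-fold, to 0.52 for miR-92a-1-5p. miR-106b-5p, miR-25-3p and miR-106b-3p (0.67) lay outside this range, while miR-93-5p, miR-93-3p and miR-25-5p lay within it. After removal of the GC trend miR-106b-3p, at 0.24, lay within the range of these paralogs, whose highest was miR-20b-5p at 0.44. miR-106b-5p, at -0.99, was then close to their lowest, miR-19b-1-5p at -0.97, while miR-25-3p, at 0.98, stayed above them.

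With 2 libraries the likeness of 2 miRNAs is the distance between their log2 ratios, a single number. Among the 200 most abundant, the nearest to miR-106b-5p were miR-642a-5p (-1.13), miR-543 (-1.16) and miR-652-5p (-1.19). Nearest to miR-93-5p were miR-4483 (-0.03), miR-145-5p (-0.01) and miR-410-3p (0.00). Nearest to miR-25-3p were miR-146a-5p (1.04), miR-574-3p (1.02) and miR-135b-5p (1.07).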

How the data were processed

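Per the labels' protocols, small RNA from K562 cells was isolated with a miRNA kit, made into libraries with an Ion Torrent kit and read on an Ion Proton. Bowtie 0.12.3 and hg19 are named per the submitters' processing notes. The deposited table is named RPKM, but its values were taken as RPM. All values above 0 (100% in both columns, tolerance 0.1 of a read) were whole multiples of the column's smallest step. Reads and library totals were inferred by taking that step as 1 read. Every column was mapped to a sample. Log2 ratios used RPM + 0.153 RPM. Ratio intervals are exact conditional binomial, arm and neighbour intervals exact conditional odds ratios, shares Wilson, all at 95%. Main arms are the more abundant arms, taken for clusters formed by position only among arms with a RefSeq position. An exact binomial test of the reads with Benjamini-Hochberg adjustment at 0.05, added after seeing the data, called 426 of 1995 miRNAs. It compares these libraries, not the conditions. The text names the 6 members, their seed relatives and paralogs among the 400 most abundant, the 3 nearest log2 ratios, and extreme clusters and hairpins; miR-379 to miR-656 was added after its values were seen. Members and lists were chosen with earlier results of these data known. Sequences came from RefSeq (1946 of 2218 matched). Functions were checked on simulated data. Tables were read with pandas 2.3.3 and statistics computed with scipy 1.17.1 on Python 3.11.15.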

Additional observations from a re-analysis of the deposited data

How the results depend on the processing

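No paired analysis was possible because each group has 1 library, and no library could be left out. Pseudocounts of 1 RPM or 10 times the one used moved no member beyond its counting interval. With each column scaled to its miRNA reads, log2 ratios were -0.97 for miR-106b-5p, 0.82 for miR-106b-3p, 0.13 for miR-93-5p, 0.49 for miR-93-3p and 1.19 for miR-25-3p, with 0 members at least 2-fold lower. With the 10 most abundant left out of the scaling they were -1.24 for miR-106b-5p, 0.56 for miR-106b-3p, -0.13 for miR-93-5p and 0.93 for miR-25-3p. Quantile normalization gave -1.34 for miR-106b-5p, 0.063 for miR-93-3p and 0.94 for miR-25-3p. With the median of the 200 most abundant set to 0 they were -1.19 for miR-106b-5p, -0.083 for miR-93-5p and 0.98 for miR-25-3p. With the GC trend removed they were -0.99, 0.24, -0.14, 0.029 and 0.98 for miR-106b-5p, miR-106b-3p, miR-93-5p, miR-93-3p and miR-25-3p, with 0 members at least 2-fold lower. The count at least 2-fold higher was 1 under both pseudocounts and with the columns scaled to their miRNA reads, and 0 under the other 4 of these settings. At 1.5-fold, 2 members were higher and 1 lower, and at 3-fold 0 and 0.

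The arm difference with the GC trend removed was -1.23 for miR-106b and -0.17 for miR-93. Between main arms the log2 change was -1.302 under quantile normalization and -0.85 with the GC trend removed for miR-106b-5p per miR-93-5p, -2.28 and -1.97 for miR-106b-5p per miR-25-3p, and -0.98 and -1.12 for miR-93-5p per miR-25-3p. The share of all miRNAs with a read that were at least 2-fold higher was 23.8%, against 15% of the 200 most abundant. With the pseudocount used, miRNAs with few reads pass upward more easily. The cause of these shifts was not tested. The depth of the QKI5 library limits miR-25-5p most, at 65 reads.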
